A study of Homo sapiens with 4 samples.

Results

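The 4 genes PLAU, PLAT, PLAUR and SERPINE2 of the plasminogen activation system were followed in the RNA-seq of HGC-27 cells. They were taken by symbol, and each was found among the 25559 gene symbols of the count tables. The line HGC-27 was established from a lymph node metastasis of a gastric carcinoma. The series comprised 2 libraries of control cells, whose genotype the labels give as wildtype, and 2 libraries of RUNX3 KO cells. The KO cells had received a lentiviral plasmid with Cas9 and 1 guide against RUNX3, were selected with puromycin and were passed through single-cell cloning. How many clones were sequenced, and whether the control cells carried a vector, is not stated in the sources used here. The 2 libraries of a group are replicates by their labels alone, so p-values measure the spread between these libraries, which may be technical. The labels name no further treatment of either group.

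Plasmin, the protease that dissolves fibrin and cleaves many matrix proteins, is made from plasminogen by 2 serine proteases, the urokinase-type activator (uPA, encoded by PLAU) and the tissue-type activator (tPA, encoded by PLAT). uPA is bound at the cell surface by its receptor uPAR, encoded by PLAUR, a GPI-anchored protein that also takes part in adhesion and signalling. Serpins are suicide inhibitors that trap such proteases, and the serpin protease nexin-1, encoded by SERPINE2, inhibits thrombin, uPA, tPA and plasmin. In carcinomas this system is studied for its part in invasion, and its transcripts can come from tumour cells or from the stroma, which a cell line lacks.

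Each library had between 11731401 and 12110876 counts on genes, and 12967 genes passed the filter on low counts. At this depth 3 counts, used here as the floor for a gene in a library, correspond to 0.250 to 0.254 CPM (counts-per-million, with library sizes scaled by edgeR's TMM method). RUNX3, the targeted gene, was counted 351 and 308 times in control and 225 and 185 times in KO libraries. The study reports RUNX3 protein as absent from its KO cells by immunoblot, and RNA counts do not measure protein. Fold changes are given as log2FC, the log2 of KO over control, with adjusted p-values from the quasi-likelihood test of edgeR (Benjamini-Hochberg over all tested genes). For RUNX3 the log2FC was -0.70 (SE 0.0961; adjusted p = 1.43e-09), and without KO replicate 2 it was -0.55 with an adjusted p of 0.0649. All 8 markers of gastric mucosa that were looked up were at or under 3 counts in every library, among them MUC5AC and TFF1 at 0 counts. Of 8 epithelial markers 4 were at or under 3 counts, EPCAM among them and KRT19 at 0. The summed level of the epithelial markers was 3.30 to 3.39 CPM in control and 9.32 to 10.8 CPM in KO libraries, and most of this difference was KRT8, at 1.27 CPM in control and 6.42 CPM in KO cells. CDH1 was also higher in both KO libraries, with 15 and 21 counts in control and 30 and 32 in KO libraries. KRT18 was counted 0 and 0 times in control and 2 and 14 times in KO libraries, so KO replicate 1 was under the floor. EPCAM (1 and 1 counts against 0 and 0) and KRT7 (3 and 2 against 1 and 0) stayed at or under 3 counts. Their lower counts in KO libraries give no direction, and CLDN4 overlapped. The 6 mesenchymal markers summed to 6349 to 6442 CPM in control and 3618 to 3700 CPM in KO libraries. VIM and COL1A1 made up most of this sum, at 4885 and 1245 CPM in control and 2901.5 and 683 CPM in KO cells. COL1A2, FN1 and ZEB1 were also lower, and CDH2 was at or under 3 counts in every library. Leukocyte and endothelial markers summed to at most 2.80 and 0.508 CPM in any library.

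SERPINE2 was the one member that passed the test, and it fell in KO cells. Control libraries held 44 and 41 counts of it, and RUNX3 KO libraries 13 and 12. Both KO libraries lay below both control libraries, as in 36.4% of all tested genes, and the 2 libraries of each group lay close together. Mean levels were 3.60 ± 0.179 CPM in control and 1.05 ± 0.0730 CPM in KO cells (± SD of the 2 libraries, here and below). This was a 3.41-fold fall, with a log2FC of -1.77 (SE 0.296; 95% interval -2.36 to -1.18; adjusted p = 3.10e-07, edgeR). In these bulk libraries, fewer cells with the transcript and less transcript per cell cannot be told apart. Leaving out any 1 library, SERPINE2 had a log2FC between -1.84 and -1.70. Of the 12967 tested genes 208, or 1.6%, fell at least as much.

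Among all tested genes 48.9% were called at an adjusted p under 0.05, 24.4% lower and 24.5% higher. With a fold change of at least 2 required as well, 3.95% were lower and 2.11% higher. Of the 4 members 3 passed the filter, and 1 of these 3 was called lower. Genes with mean counts within the range of the tested members, 27.5 to 73, numbered 1345. Of these, 22.4% were lower and 12% higher, with a median SE of 0.22 and a median absolute log2FC of 0.33. With 3 members tested, 1 call is too few to set against these shares, and the result rests on SERPINE2 alone.

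SERPINE2 (ENSG00000135919) is a minus-strand gene at chr2:224839762-224904035 (hg19, GENCODE annotation). The 40 tested genes nearest to it had a median log2FC of 0.04, 18 of them were lower in KO cells, and 1 fell at least as much. No exon of another annotated gene overlapped its exons. RefSeq gives 2 start sites of SERPINE2 among its promoter windows (GRCh38.p14 table), and each window had 1 exact match in GRCh37, the build of the files. The 250 bases before the downstream start are shown because SERPINE2 was the member that changed and because of their arrangement. They lie on the minus strand at chr2:224896196-224896445, and capitals mark the letters CCAAT read on either strand.

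SERPINE2, 250 bases before the downstream RefSeq start: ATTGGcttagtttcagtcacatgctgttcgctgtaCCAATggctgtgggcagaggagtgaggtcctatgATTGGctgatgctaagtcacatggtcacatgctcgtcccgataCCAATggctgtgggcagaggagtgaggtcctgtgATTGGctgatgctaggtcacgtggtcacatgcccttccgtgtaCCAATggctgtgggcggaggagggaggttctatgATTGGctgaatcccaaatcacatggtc

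The window holds a tandem repeat. The run taccaatggctgtgggc occurs 3 times, 77 bases apart each time, starting 217, 140 and 63 bases before the start site. The letters CCAAT occur 7 times in it on either strand. Of 35114 promoter windows of this length, 32% hold CCAAT at least once and 7 windows, 0.0199%, hold it at least as often. The search for CCAAT was chosen after the sequence had been seen. The letters TGTGGT or TGCGGT, which RUNX proteins bind, were searched on both strands and occur in 16.3% of all windows. Neither is in the 2 windows of SERPINE2, the 2 of PLAU or the 1 of PLAUR. The AP-1 letters TGAGTCA or TGACTCA occur in 4.2% of all windows and once in that of PLAUR, 186 to 180 bases before its start. These 30 bases on the minus strand at chr19:44174489-44174518 surround them, with the AP-1 letters in capitals.

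PLAUR, AP-1 letters before the RefSeq start: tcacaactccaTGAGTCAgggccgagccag

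PLAU, the gene of uPA, was lower in KO libraries without passing the test. Control libraries held 47 and 39 PLAU counts and KO libraries 31 and 32. Both KO libraries lay below both control libraries, a separation seen in 36.4% of all tested genes. Mean levels were 3.64 ± 0.478 CPM in control and 2.64 ± 0.0249 CPM in KO cells, a log2FC of -0.46 (SE 0.238; 95% interval -0.93 to 0.01; adjusted p = 0.102, edgeR). At this depth the data neither show a fall of PLAU nor limit it closely. Control replicate 1, the highest of the 4 libraries, weighed on the value, which was -0.32 without it, against -0.59 without control replicate 2. Over all alternatives the adjusted p of PLAU ranged from 0.0870 to 0.449.

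PLAU (ENSG00000122861) is a plus-strand gene at chr10:75668935-75677254. Its exons overlap those of C10orf55, a long noncoding RNA gene on the opposite strand, by 915 bases. The library kit in the labels keeps strand, but whether counting used it is not given in the sources used here. C10orf55 itself had 1 and 2 counts in control and 0 and 1 in KO libraries, and its part in the PLAU counts was not tested. The 40 tested genes nearest to PLAU had a median log2FC of -0.01.

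PLAUR, the gene of the uPA receptor, did not pass the test, with 68 and 77 counts in control and 70 and 77 in KO libraries. The groups overlapped. Mean levels were 6.14 ± 0.541 CPM in control and 6.17 ± 0.335 CPM in KO cells, a log2FC of 0.01 (SE 0.172; 95% interval -0.34 to 0.35; adjusted p = 0.980, edgeR). The interval leaves room for a change of about 0.3 log2 units either way. Its sign turned to -0.01 with library size alone or upper-quartile factors as scaling, and it was also negative without control replicate 1 or KO replicate 2. PLAUR (ENSG00000011422) is a minus-strand gene at chr19:44150247-44174699, among genes with a median log2FC of -0.05.

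PLAT, the gene of tPA, was at the floor in every library. Each group held 1 and 0 counts of it, so it was not tested and no fold change can be given. PLAT (ENSG00000104368) is a minus-strand gene at chr8:42032236-42065227. Expression of PLAT in HGC-27 cells of either genotype was therefore not detectable above 3 counts per library at this depth.

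Setting the members against each other within a library removes the scaling between libraries. For every PLAU count there were 0.936 and 1.05 SERPINE2 counts in control and 0.419 and 0.375 in KO libraries. As a share of the counts of both genes, SERPINE2 took 48.4% (exact 95% binomial interval 37.7 to 59.1) and 51.2% (39.8 to 62.6) in control replicates 1 and 2. In KO replicates 1 and 2 it took 29.5% (16.8 to 45.2) and 27.3% (15 to 42.8). Both KO shares were below both control shares, while the intervals of single libraries overlapped. Against PLAUR, SERPINE2 took 39.3% (30.2 to 49.0) and 34.7% (26.2 to 44.1) in control and 15.7% (8.61 to 25.3) and 13.5% (7.17 to 22.4) in KO replicates, and these intervals did not overlap between groups. For every PLAU count there were 1.45 and 1.97 PLAUR counts in control and 2.26 and 2.41 in KO libraries. The intervals cover counting error only, and 2 libraries against 2 allow no exact two-sided permutation p below 0.333.

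**Figure D1:**
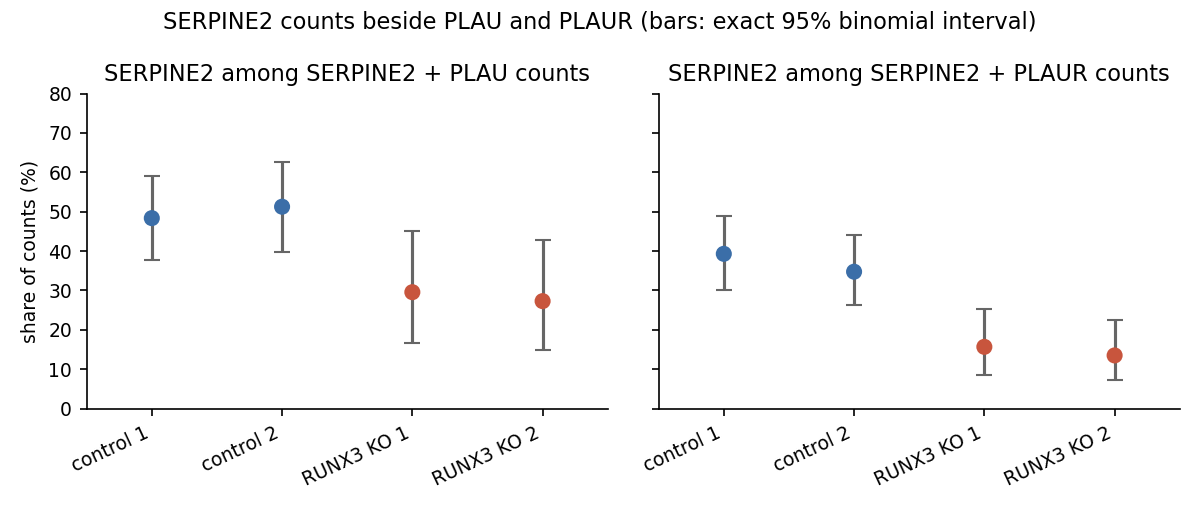
Share of SERPINE2 (vertical axis, %) among the summed counts of SERPINE2 and PLAU (left) and of SERPINE2 and PLAUR (right) in each of the 4 libraries, with exact 95% binomial intervals. The KO libraries lie at 27.3 to 29.5% against PLAU and at 13.5 to 15.7% against PLAUR, below the control libraries in both panels.

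Per kilobase of exon (all annotated exons of a gene joined), PLAUR was the most abundant member in control cells at 1.38 ± 0.121 CPM per kb (SD, n = 2). PLAU followed at 1.24 ± 0.162, SERPINE2 at 0.402 ± 0.0199 and PLAT at 0.0109 and 0 in the 2 libraries. With this length PLAUR and PLAU did not differ beyond their spread in control cells. In KO cells the order was the same, with PLAUR at 1.38 ± 0.0752, PLAU at 0.897 ± 0.00846 and SERPINE2 at 0.117 ± 0.00815 CPM per kb (SD, n = 2). The gap between PLAUR and PLAU depends on the length taken, since per kilobase of the longest transcript they were at 3.82 and 1.37 CPM in control cells. All tested members were low in these cells, as 79.5% of tested genes had a higher CPM than PLAUR, 86.8% than PLAU and 89.8% than SERPINE2.

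Around the members, the zymogen and every listed inhibitor other than SERPINE2 were not expressed enough to be tested. PLG, the gene of plasminogen itself, had 0 counts in all 4 libraries, which allows up to 3 counts, or 0.254 CPM, in each. SERPINI1 (neuroserpin, an inhibitor of tPA) had 9 and 7 counts in control and 5 and 7 in KO libraries. A2M, a broad protease trap, had 5 and 4 against 3 and 4, and SERPINF2, the plasmin inhibitor, 2 and 0 against 3 and 1. SERPINB2 (PAI-2), SERPINA5 and CPB2 had 0 counts in all libraries. Of the 8 listed inhibitors, SERPINE2 was thus the one that passed the filter.

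The 8 lists called plasminogen activation lists here include the thrombin arm, a list of coagulation genes around thrombin. In the thrombin arm 4 of 5 tested genes were lower, beside 24.4% of all tested genes. Over all 8 lists, written by symbol and holding 75 different genes, 42 genes were tested. Of these, 17 were lower and 10 higher in KO cells, or 40.5% and 23.8%, beside 24.4% and 24.5% of all tested genes. The median log2FC was -0.07, against -0.002 for all tested genes. With a fold change of at least 2 required as well, 7 were lower and 3 higher, beside 3.95% and 2.11% of all tested genes. PDGFD and HGF, both among these, passed the filter through one group alone. Without them 16 of 40 genes were lower and 9 higher, and 6 and 2 with a fold change of at least 2. Without KO replicate 1 the number of lower genes was 11, and 11.6% of all tested genes were then lower.

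Plasminogen-binding proteins hold the zymogen at the cell surface. Of 7 tested genes, 3 rose and 4 did not pass, beside 24.5% higher of all tested genes. KRT8, a keratin that also binds plasminogen, had 19 and 11 counts in control and 72 and 81 in KO libraries, a log2FC of 2.33 (SE 0.251; adjusted p = 1.90e-13). The annotated span of KRT8 overlaps that of KRT18 on the opposite strand. KRT18 had 0 counts in both control libraries and 2 and 14 in KO libraries. KRT8 itself made up most of the higher sum of epithelial markers in KO libraries. PLGRKT, the transmembrane plasminogen receptor, listed under the older symbol C9orf46, had 125 and 103 counts in control and 222 and 218 in KO libraries. Its log2FC was 0.93 (SE 0.118; adjusted p = 8.57e-11). PLGRKT lies on chromosome 9 at 5357971 to 5437925, where 33 of the 35 nearest tested genes were higher in KO cells (median log2FC 0.88). RUVBL1 rose by 0.20. The abundant binders ENO1, ANXA2, HMGB1 and S100A10 had log2FCs of -0.02, 0.05, 0.05 and -0.0011, with adjusted p-values from 0.0648 for ANXA2 to 0.986 for S100A10. ANXA2 lies on chromosome 15, where 33 of its 40 nearest tested genes were higher (median log2FC 0.34) and 32 rose at least as much. ANXA2 was called higher without control replicate 2 (0.07, adjusted p = 0.0125) and with limma-voom (adjusted p = 0.0449).

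Among proteases that turn pro-uPA into the active 2-chain form, CTSL rose by 0.18 on the log2 scale (adjusted p = 0.000727). That call was lost without either KO replicate (adjusted p = 0.0876 and 0.0530) and with DESeq2 (0.0561). CTSL also lies on chromosome 9, where 35 of its 40 nearest tested genes were higher (median log2FC 0.34) and 31 rose at least as much. CTSB and F12 had log2FCs of -0.08 and -0.13 (adjusted p = 0.0872 and 0.212). CTSB was called lower with library size alone or upper-quartile factors as scaling (adjusted p = 0.0299 and 0.0289), and F12 without control replicate 2 (-0.29, adjusted p = 0.0126). ST14, the gene of matriptase, was named after its values were seen. It had 0 counts in both control libraries and 8 and 10 in the KO libraries, too few to pass the filter, and was at least 2.97-fold higher against a floor of 3 counts per library.

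Complexes of activator and serpin are cleared by endocytic receptors. Of 10 listed and tested receptors and associated proteins, 5 fell, 3 rose and 2 did not pass, beside 24.4% lower and 24.5% higher of all tested genes. LRP1, the main receptor for uPA-serpin complexes, had 1415 and 1315 counts in control and 824 and 884 in KO libraries. It fell by 0.69 on the log2 scale (SE 0.0483; adjusted p = 7.33e-23). VLDLR, which binds the same complexes, rose from 32.5 ± 0.769 to 83.2 ± 4.85 CPM. For VLDLR the log2FC was 1.36 (SE 0.0623; adjusted p = 8.83e-35), and the 25 nearest tested genes, also on chromosome 9, were all higher with a median of 0.93. MRC2, the uPAR-associated collagen receptor, fell by 0.14. SORL1 rose by 0.47 amid 40 genes of which 32 were lower. LRP2 fell by 0.63, IGF2R by 0.12, and LRPAP1 rose by 0.19. With DESeq2 the calls of LRP2, IGF2R and LRPAP1 were lost, which left 3 lower and 2 higher, beside 14.4% and 14.1% of all tested genes with that test. Without KO replicate 1 the calls of LRP2, IGF2R and MRC2 were lost (adjusted p = 0.101, 0.182 and 0.0826). Without KO replicate 2 those of LRP2, IGF2R and LRPAP1 were (0.116, 0.0779 and 0.0816). LRP2 also lost its call without control replicate 2 (0.0554) and IGF2R without control replicate 1 (0.0796) and without the filter on low counts (0.0611).

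Surface partners of uPAR include integrins and growth factor receptors. Of 8 tested genes, 3 fell, 1 rose and 4 did not pass, or 37.5% lower and 12.5% higher, beside 24.4% and 24.5% of all tested genes. PDGFRB, one of the 3, is described with its ligands. ITGA5, a fibronectin receptor chain, fell by 0.36 (SE 0.0452) and ITGB5, a vitronectin receptor chain, by 0.33 (SE 0.0642). ITGB5 had an adjusted p of 8.59e-06 with all libraries and of 0.0545 without KO replicate 1. ITGA3, a laminin receptor chain, rose by 0.79 (SE 0.0874), more than any of its 40 nearest tested genes. ITGB1 and ITGAV had log2FCs of -0.03 and -0.07 (adjusted p = 0.365 and 0.207). Vitronectin itself (VTN) had 4 and 6 counts in control and 6 and 6 in KO libraries.

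Substrates of the activators and of plasmin include growth factors and matrix proteins, listed here with their receptors. Besides PDGFD and HGF, which passed the filter only through the group where they were high, 5 genes were tested, of which 4 fell and 1 rose, beside 24.4% lower and 24.5% higher of all tested genes. PDGFD encodes a growth factor that uPA can activate. Control libraries held 209 and 205 counts of it and KO libraries 5 and 0, so little was left in KO cells. The ratio of control to KO levels was 83.6 (exact 95% interval from counts 35.5 to 259). The size of this ratio rests on the few KO counts, since the fitted log2FC was -6.31 with all libraries, -10.70 without KO replicate 1 and -5.34 without KO replicate 2. PDGFC, a growth factor activated by tPA, fell from 36.4 ± 1.99 to 26.6 ± 0.901 CPM, a log2FC of -0.45 (SE 0.0791; adjusted p = 8.12e-07). Their receptors were lower too. PDGFRA had 324 and 328 counts in control and 69 and 62 in KO libraries, a log2FC of -2.33 (SE 0.122). PDGFRB had 95 and 82 against 44 and 31, a log2FC of -1.25 (SE 0.195). FN1, the gene of fibronectin, fell by 3.01 on the log2 scale. It is one of the mesenchymal markers whose sum was lower in KO libraries. At 8.90 CPM in control and 1.09 CPM in KO cells, FN1 was a small part of that sum. The part of the mesenchymal shift in the list was not tested. HGF, a growth factor whose precursor uPA can cleave, moved the other way, with 1 and 2 counts in control and 20 and 18 in KO libraries. The ratio of KO to control levels was 12.6 (exact 95% interval from counts 3.98 to 63.6). MET, the HGF receptor, rose from 40.9 ± 1.61 to 60.3 ± 1.02 CPM, a log2FC of 0.56 (SE 0.0632).

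SERPINE2 is also a thrombin inhibitor. Of 5 tested genes of the thrombin arm 4 fell, beside 24.4% of all tested genes. With DESeq2 3 of 5 were lower, beside 14.4% of all tested genes. Without KO replicate 1 there were 2 of 6, beside 11.6%, and without KO replicate 2 there were 3 of 6, beside 10.4%. F2R, the thrombin receptor PAR1, had 582 and 528 counts in control and 230 and 246 in KO libraries. Its log2FC was -1.23 (SE 0.0801; adjusted p = 8.40e-25), and 0 of its 40 nearest tested genes fell as much. PROS1, the gene of protein S, had 269 and 250 counts against 129 and 86, a log2FC of -1.28 (SE 0.120; adjusted p = 3.48e-16). PROCR, the protein C receptor, fell by 0.86 (adjusted p = 0.000175), and without KO replicate 1 it had an adjusted p of 0.0697. F3, the gene of tissue factor, fell by 0.88 (adjusted p = 0.00117). Without KO replicate 1 or 2 its adjusted p was 0.0548 or 0.0734, and with DESeq2 it was 0.0839. TFPI, the inhibitor of the tissue factor pathway, had a log2FC of 0.35 (adjusted p = 0.0588). F2, the gene of prothrombin, had 1 count over all 4 libraries.

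**Figure D2:**
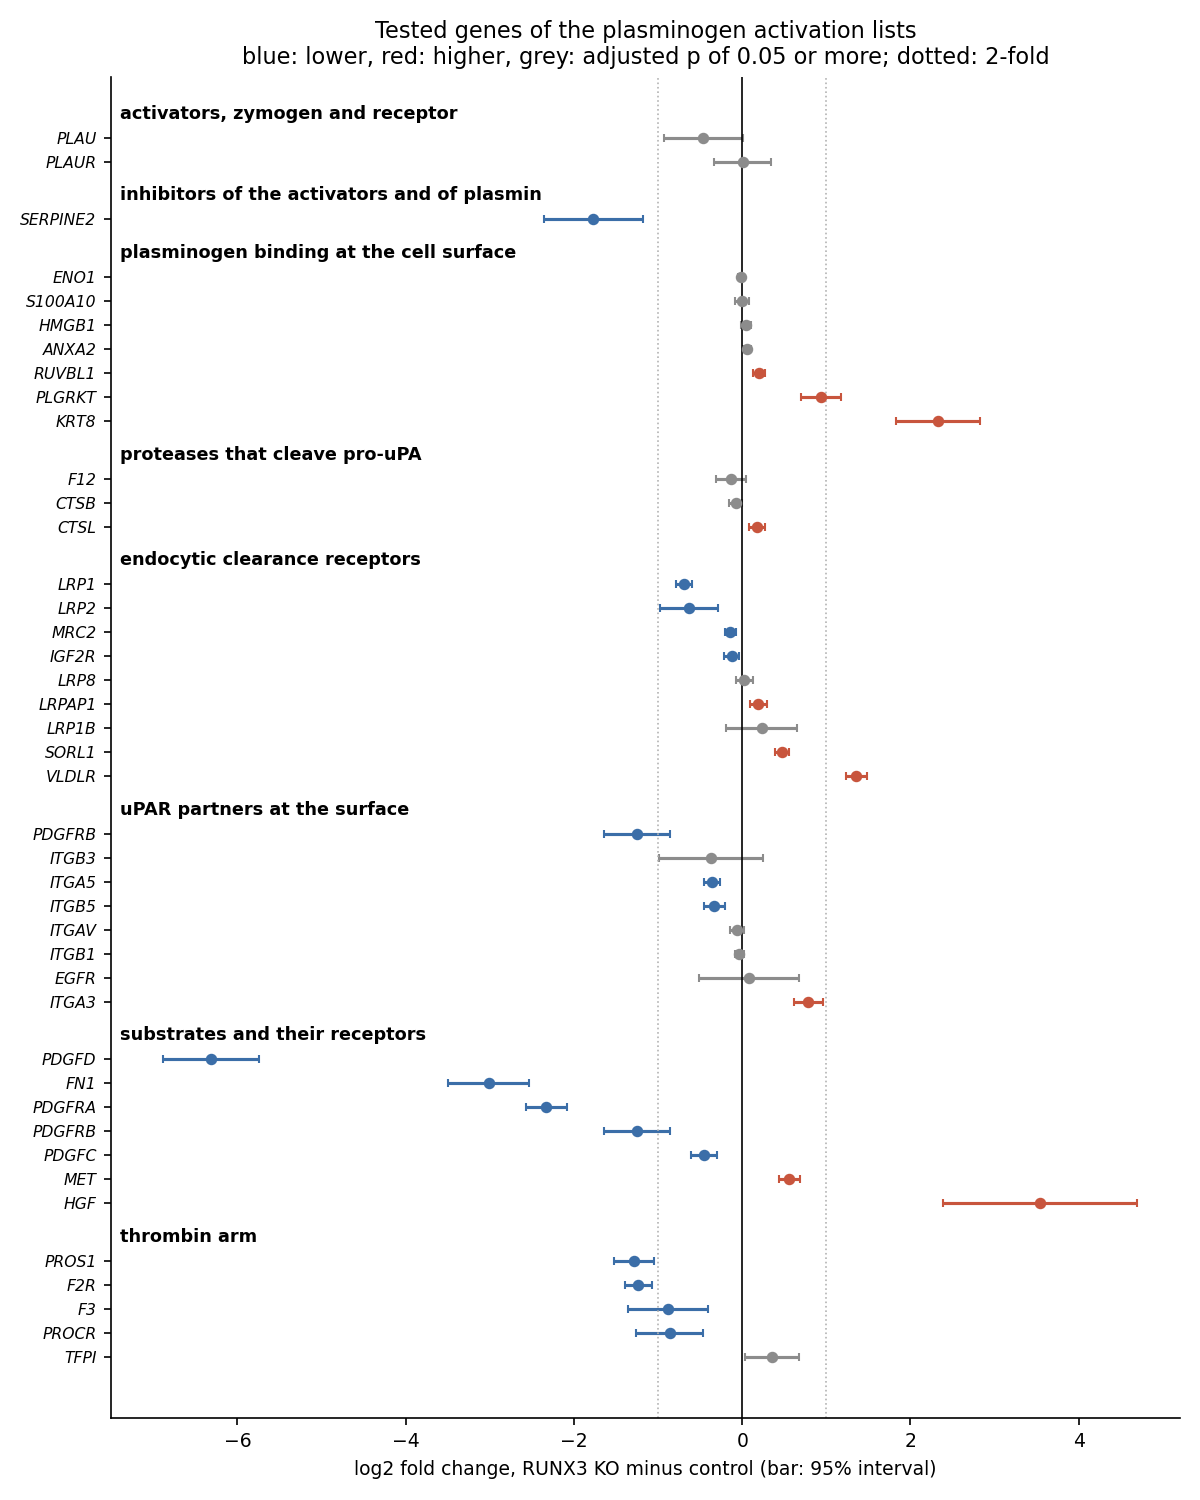
Log2FC of RUNX3 KO against control (horizontal axis, with 95% intervals) for the tested genes of the 8 plasminogen activation lists, grouped by role, without 1 clearance receptor that is counted but not shown; blue and red mark genes called lower and higher, grey marks genes that were not called, and PDGFRB stands in 2 lists. SERPINE2 lies at -1.77 beside PLAU at -0.46 and PLAUR at 0.01, and the substrates run from PDGFD at -6.31 to HGF at 3.54, fitted values that depend on the prior count since one group of each was near 0.

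The tables hold 36 symbols of the serpin family, of which 28 were at or under 3 counts in every library and 6 were tested. Of these 3 fell and 1 rose, beside 24.4% lower and 24.5% higher of all tested genes. Beside SERPINE2, SERPINF1 (PEDF, an extracellular serpin that inhibits no protease) fell from 134 ± 3.57 to 105 ± 1.90 CPM, a log2FC of -0.35 (SE 0.0423; adjusted p = 9.68e-12). SERPINH1 (HSP47, the collagen chaperone) fell from 830 ± 13.5 to 725 ± 5.88 CPM, a log2FC of -0.20 (SE 0.0236; adjusted p = 1.60e-11). SERPINB6, an intracellular inhibitor, rose by 0.14 (adjusted p = 0.00635). That call was lost without control replicate 1 or either KO replicate, with adjusted p-values from 0.228 to 0.307, and without the filter (0.115) or with DESeq2 (0.148). SERPINB8 and SERPING1 had log2FCs of -0.17 and 0.79 (adjusted p = 0.643 and 0.0630). With all libraries SERPINE2 was the one tested serpin called with a change of at least 2-fold, at a low level. Without control replicate 2 there were 2 serpins called higher, 1 of them by at least 2-fold.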

How the data were processed

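RNA-seq was carried out on 2 control and 2 RUNX3 KO libraries. The authors deposited raw counts of reads per gene symbol, without normalization, on hg19. The methods of the study name STAR and featureCounts, the submitters' processing notes name HISAT2 2.1.0 and HTSeq, and the last 5 rows of every table count unassigned reads, as HTSeq writes them. These rows took 25.9% to 28.1% of counts and were left out.

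The analysis used edgeR 4.0.16 in R 4.3.3 (filterByExpr, minimum count 10, minimum total 15, TMM, quasi-likelihood test, prior count 0.125) and Benjamini-Hochberg adjustment over 12967 genes. Genes were called at an adjusted p under 0.05. Standard errors were derived from the log2FC and its F statistic. The steps were tested on simulated counts, where 93 of 99 genes changed by 2-fold among 12913 were recovered, with 12 false calls. Replicates differed by little more than counting noise (chi-square per degree of freedom 1.22 in control and 1.18 in KO libraries).

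Of 25559 symbols, 19607 matched the GENCODE annotation on GRCh37 by symbol and 2109 through a synonym. The neighbourhood of a gene is the nearest 20 tested genes on each side, fewer at chromosome ends. The members, lists and tests were chosen with earlier results of these data known. Besides the members and RUNX3, the rule for named genes took from each list those called with at least a 2-fold change and 3 further ones with the highest CPM, and every inhibitor and activator. Some list genes are included in the counts but not reported here. Other genes named (PLGRKT, RUVBL1, S100A10, LRP1, LRP2, LRPAP1, IGF2R, ITGB5, ITGA3, VTN, ST14, F2, SERPINB8, SERPING1, C10orf55 and markers) were chosen after their values were seen. Alternatives were other scalings, filters and tests (DESeq2 1.42.0, limma 3.58.1), a replicate block and each library left out.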

Additional observations from a re-analysis of the deposited data

How the results depend on the processing

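SERPINE2 was called lower and PLAU and PLAUR were not called in each of the 12 alternatives. SERPINE2 ranged from -1.84 to -1.70 (adjusted p up to 0.0329, without KO replicate 2) and PLAU from -0.59 to -0.32. PLAUR changed sign to -0.013 with library size alone, to -0.014 with upper-quartile factors and to -1.5e-05 with 10 counts required in every library, and ranged from -0.080 to 0.10 with a library left out. RUNX3 ranged from -0.86 to -0.55 with a library left out and lost its call without KO replicate 2. F12 ranged from -0.29 to 0.039 with a library left out. Of the other named list genes, leaving out PDGFD, HGF and LYPD1, which passed the filter through one group alone, 31 were called. Of their 372 fits 36 lost the call, none of them among the 96 fits of the 8 genes that changed by at least 2-fold. Among the uncalled named genes that were followed fit by fit, CTSB gained a call in 2 fits, ANXA2 in 2 and F12 in 1. S100A10, SERPINB8 and SERPING1 were also not called, and they were left out of this tally. With at least 2-fold required, the plasminogen activation lists had 7 lower and 3 higher genes, the serpins 1 and 0 (against 3 and 1), and all tested genes 512 and 274 (against 3158 and 3183). DESeq2 called 1863 lower and 1829 higher genes. No serpin was called higher by DESeq2 (0 also at an unadjusted p under 0.05) or by edgeR without the filter (1 at an unadjusted p under 0.05). With a library left out, the lists had 11 to 18 lower genes, the serpins 0 to 2 higher, and all tested genes 1378 to 2806 lower and 1285 to 2745 higher. Per kilobase of the longest transcript, PLAUR was at 3.82 and 3.83 CPM in control and KO cells, SERPINE2 at 0.601 and 0.175, and PLAU at 0.995 in KO cells. The fit with a replicate block, for numbers that the libraries only share by label (correlation of deviations 0.0218), gave -1.77 for SERPINE2, -0.46 for PLAU and 0.01 for PLAUR and 3143 lower and 3143 higher genes, and changed no call of a member. Depth limits PLAU, whose interval spans 0, and PLAT and PLG, which could not be tested.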

Other observations

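uPAR belongs to the LY6/uPAR domain family of small, mostly GPI-anchored proteins, of which 23 listed genes were in the tables. Of these 6 were tested, PLAUR among them, and 17 were not. Besides LYPD1, which passed the filter through the control group alone, 5 were tested, of which 3 fell and 1 rose, beside 24.4% lower and 24.5% higher of all tested genes. Whether the family stands apart from other genes, or PLAUR from the family, was not tested. LYPD6, a regulator of WNT signalling, had 111 and 100 counts in control and 14 and 17 in KO libraries, a log2FC of -2.77 (SE 0.228; adjusted p = 5.29e-19). LYPD1, which binds nicotinic receptors, had 20 and 27 counts in control and 0 and 3 in KO libraries. Its ratio of control to KO levels was 15.8 (exact 95% interval from counts 5.09 to 79.4). The fitted log2FC of LYPD1 was -3.87 with all libraries, -2.94 without KO replicate 1 and -7.56 without KO replicate 2. LY6E fell by 0.38 and LY6G6D by 0.36 on the log2 scale, and CD59, the inhibitor of the complement membrane attack complex, rose by 0.13. Without KO replicate 1 the calls of LY6G6D and CD59 were lost (adjusted p = 0.0892 and 0.276), and without KO replicate 2 likewise (0.0895 and 0.162). CD59 also lost its call without control replicate 1 (0.282), with library size alone (0.0735), with upper-quartile factors (0.0766) and without the filter (0.103), and LY6G6D without control replicate 2 (0.0616). With DESeq2 neither was called (0.192 for LY6G6D and 0.273 for CD59). The medians of the nearest 40 tested genes were -0.01 for LYPD6 and -0.02 for LYPD1.

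The genes whose log2 CPM, centred over the 4 libraries, lay nearest to that of SERPINE2 were EEPD1, NAV3 and S100A4, with root mean square differences of 0.0361, 0.0617 and 0.0640 log2 units. For PLAU they were KALRN, CRMP1 and LRP10 (0.0139, 0.0215 and 0.0216), and for PLAUR they were TPCN2, NGLY1 and TUBD1 (0.00895, 0.00996 and 0.0126). The points are 4 libraries in 2 groups, so this likeness is mostly that of the fold change. LRP10, one of the genes near PLAU, had 339 and 275 counts in control and 222 and 222 in KO libraries and passed the test with an adjusted p of 1.24e-05.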
